A study of Canis lupus familiaris with 17 samples.

Results

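A set of 101 transcripts, of 21571 measured, was lower in scribKD cells and in scribRES cells than in control cells, and by a similar amount in both. These transcripts were selected on the values themselves. Levels are given as RPKM, the reads on a transcript divided by its length and by the total reads of the library, and differences as log2(RPKM + 0.1), averaged over the 2 libraries of a population in an experiment. A transcript was taken when its mean level reached 5 RPKM in at least 1 population over experiments 2 and 3, when scribKD minus control and scribRES minus control were both -0.6 or less in each of these experiments, and when the mean difference between scribRES and scribKD cells lay between -0.4 and 0.4. Of 105 transcripts within these limits, Slc29a1, Tspan33, Ido2 and Kif18b were left out by name, which left 65 transcripts with a gene name and 36 known only by their transcript identifier.

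RNA was sequenced from MDCK-II cells, a widely used epithelial cell line from dog kidney. Every group carried a short hairpin RNA against scribble that tetracycline (TET) switches on. Control cells were the scribKD line kept without TET, scribKD cells were the same line given 10 μg/ml TET at plating, and scribRES cells, also given 10 μg/ml TET, were grown out of the scribKD line under prolonged TET and are resistant to cell competition. In all groups 1300000 cells were plated per dish and RNA was collected 67 h later. There were 6 control, 6 scribKD and 4 scribRES libraries, numbered here by experiment (1 and 2 for the first, 3 and 4 for the second, 5 and 6 for the third), with no scribRES cells in experiment 1. Both populations with silenced scribble received TET and the control did not, so a fall that follows TET itself and a fall that follows loss of scribble cannot be told apart here. scribRES is 1 resistant population, and both differences from control within an experiment use the same pair of control libraries.

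Scribble is a scaffold protein of the basolateral cortex that helps to set apical-basal polarity and to organise junctions. Loss of such a polarity protein can place an epithelial cell at a disadvantage beside normal neighbours, the process called cell competition. The comparison asks which transcripts are low both in silenced cells that lose this competition and in silenced cells that withstand it. The genes in the set serve varied roles, among them a tight junction pore protein, secreted ligands, enzymes of lipid and retinoid metabolism, actin-binding proteins and an intermediate filament protein.

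Depth and markers were examined over all libraries. Reads on transcripts numbered 12612666 to 29002711 per sequencing run, experiment 1 being sequenced most deeply. Control replicate 2 was sequenced in 2 runs whose reads differed only slightly beyond counting noise (chi-square divided by transcripts 1.12, where control replicates 1 and 2 gave 25.3). The runs were averaged and counted as 1 library. Of 12 kidney epithelial markers, 7 could be matched to a named transcript. Ocln, the tight junction protein occludin, had mean levels of 33.5, 34.0 and 34.8 RPKM in control, scribKD and scribRES cells, and Pax8, a transcription factor of the tubule, had 47.7, 28.8 and 33.9 RPKM. Cdh16, the kidney cadherin, was low at 3.14, 0.656 and 0.862 RPKM. Of the mesenchymal and endothelial markers only Vim, Dcn and Vwf were matched, Dcn and Vwf had group means under 0.05 RPKM, and no leukocyte marker was matched. As these are bulk RNA samples, fewer cells of a type and less RNA per cell cannot be told apart.

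Silencing of the target was examined first. Scrib (XM_003431819.1) is itself within the set. It had 24.6 RPKM in the lowest control library, a median of 28.7 and 34.6 in the highest, against 9.75, 12.1 and 16.2 RPKM in scribKD cells. The 4 scribRES libraries held 12.4, 12.2, 14.8 and 13.9 RPKM. No library of either silenced population reached the lowest control library, and the 2 silenced populations overlapped.

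The overall size of the falls was similar between populations, as the selection required. Over the 101 transcripts the median of scribKD minus control was -1.04 in experiment 2 and -1.20 in experiment 3, and that of scribRES minus control was -1.19 and -0.88, while the median over the 11332 transcripts that reached the level of 5 RPKM lay between -0.01 and 0.04 for these contrasts. The median control level was 25.4 RPKM, beside 23.2 RPKM over all transcripts that reached 5 RPKM. In 79 of the 101 every control library of experiments 2 and 3 lay above every scribKD and scribRES library of these experiments. The selection favours such separation, and it was not counted over all transcripts that reached 5 RPKM. Together the transcripts took 1.82 to 1.93% of the reads in control libraries, 0.794 to 0.939% in scribKD and 0.949 to 1.02% in scribRES libraries. The selection used these libraries, other than those of experiment 1, so the values describe the set and carry no test.

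**Figure D1:**
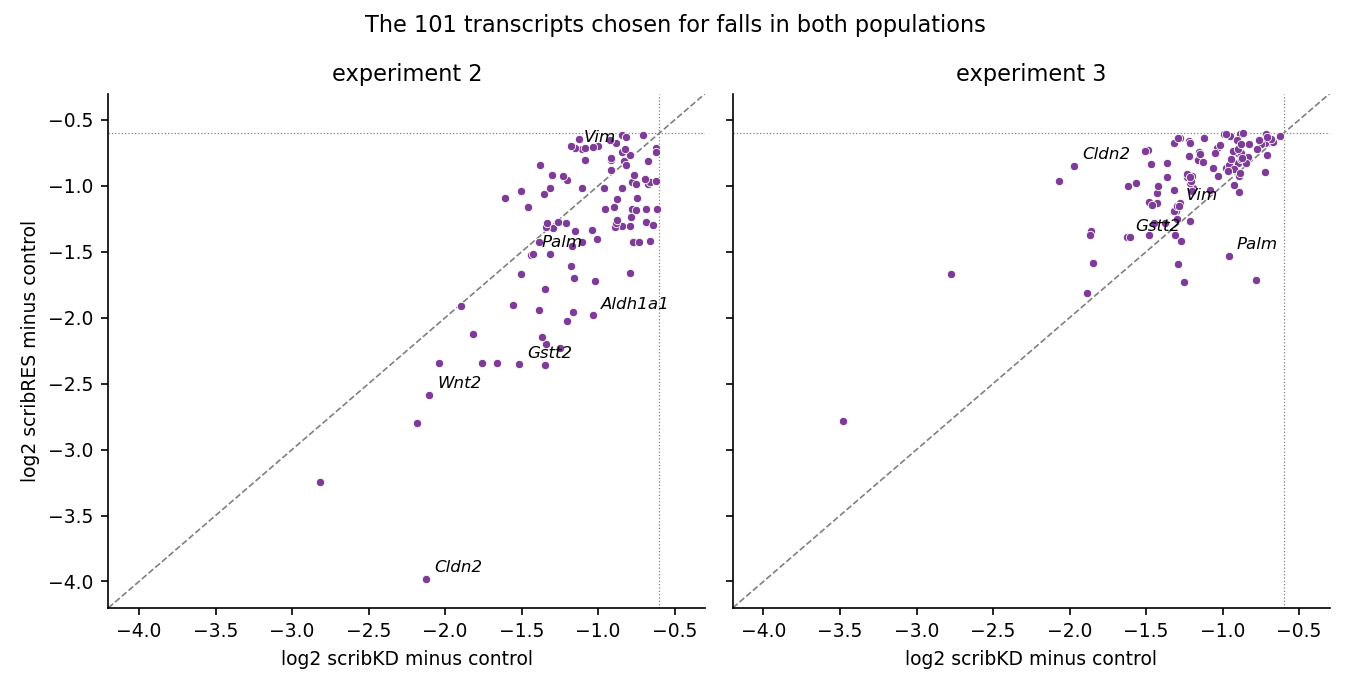
Log2 difference from control of each of the 101 transcripts, with scribKD on the horizontal axis and scribRES on the vertical axis, in experiment 2 (left) and experiment 3 (right). Each point is the mean of 2 libraries minus the mean of 2 control libraries, dotted lines mark -0.6 and the dashed line marks equal falls. Many points lie under the dashed line in experiment 2 and above it in experiment 3, where the medians for scribRES were -1.19 and -0.88.

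The falls shared by both populations were a subset of those in either. Of the 11332 transcripts that reached 5 RPKM, 382 were at -0.6 or less in both experiments in scribKD cells and 260 in scribRES cells. In both populations there were 159, which is 41.6% of the scribKD falls and 61.2% of the scribRES falls. Both differences subtract the same control libraries, so part of this overlap is built in, and its size was not tested. Of the 159, 54 differed between scribRES and scribKD cells by more than 0.4 on average, 33 of them lower and 21 higher in scribRES cells, and were not taken. Among named genes nearest the limit of -0.6, Arpc4 (-0.6002) and Elovl6 (-0.6036) lay just inside by their smallest fall, and Esco2 (-0.5978) and Fcgrt (-0.5969) just outside. For the difference between scribRES and scribKD cells, Ncoa3 (0.39) and Sstr1 (0.37) lay just inside and Ggt1 (-0.41) and Gprc5b (-0.43) just outside. All of these gaps were smaller than the median standard error of 0.13 that differences of the set had in experiment 1.

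The deepest falls among named genes were those of a junction protein and an enzyme of detoxification. Cldn2 (AF358907.1), claudin-2, which forms cation and water pores in the tight junctions of leaky epithelia, had 66.6 RPKM in the lowest control library, a median of 179 and 296 in the highest. scribKD libraries ranged from 13.8 to 84.6 RPKM with a median of 40.9, and the 4 scribRES libraries held 11.9, 10.6, 165 and 160 RPKM. The control level differed between experiments, so scribKD libraries of experiment 3 reached the control libraries of experiment 1, but within each experiment both silenced populations lay below their own controls. The log2 differences of scribKD from control were -2.13 and -1.97 in experiments 2 and 3, and those of scribRES -3.98 and -0.85.

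Gstt2 (XM_003433436.1), a theta class glutathione transferase, had 157 to 257 RPKM over the control libraries with a median of 233, and 54.9 to 87.6 with a median of 79.4 in scribKD cells. In scribRES cells it had 49.5, 46.0, 94.4 and 92.5 RPKM. No silenced library came near the lowest control library. The mean of its 4 log2 differences from control was -1.72.

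Receptors and secreted factors were also among the 12 named genes with the largest mean falls. Egfl7, a secreted protein with EGF-like domains that is best known from blood vessels, had 51.0 to 108 RPKM over control libraries (median 82.2), 14.2 to 36.3 in scribKD libraries (median 28.1) and 17.7, 17.1, 44.1 and 36.7 RPKM in scribRES libraries. Chrm4, a muscarinic acetylcholine receptor, had 37.2 to 70.1 RPKM (median 64.1) in control, 9.63 to 24.9 (median 19.6) in scribKD and 13.1, 12.9, 32.0 and 32.3 RPKM in scribRES libraries. For both genes all silenced libraries were below the lowest control library. Wnt2, a secreted Wnt ligand, was less abundant, with 4.28 to 22.6 RPKM (median 10.9) in control, 1.76 to 4.95 (median 4.47) in scribKD and 3.17, 3.63, 6.86 and 6.83 RPKM in scribRES libraries. Its control level was lowest in experiment 1, where it overlapped that of silenced cells from later experiments.

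Egf, the ligand of the epidermal growth factor receptor, which kidney tubules make as a membrane precursor, had control levels that differed widely between experiments. Control cells had 1.60 and 1.93 RPKM in experiment 1, then 9.14 and 10.1 RPKM, and finally 11.2 and 12.3 RPKM. In scribKD cells it had 2.44 and 2.56, then 3.69 and 3.66, then 5.99 and 5.89 RPKM. It was thus below control in experiments 2 and 3, by -1.37 and -0.98, and not in experiment 1, in which the control itself was low. In scribRES cells it had 2.30 and 1.91, then 6.53 and 6.32 RPKM.

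The other named genes with the largest falls had roles at membranes and in the cytoskeleton or roles less well known. Pls1, plastin 1, which bundles the actin filaments of microvilli, had 14.7 to 28.1 RPKM in control (median 23.5), 4.81 to 9.22 in scribKD (median 6.88) and 7.49, 6.19, 11.5 and 11.1 RPKM in scribRES libraries. Ap3s1, the sigma subunit of the AP-3 adaptor of endosomal sorting, had 20.7 to 33.6 RPKM in control, 8.78 to 14.3 in scribKD and 10.6, 10.4, 8.12 and 9.19 RPKM in scribRES libraries. Both genes kept all control libraries above all silenced ones. Palm, the lipid-anchored membrane protein paralemmin, had 8.76 to 16.1 RPKM in control, 3.08 to 8.24 in scribKD and 2.83, 3.22, 5.69 and 4.97 RPKM in scribRES libraries. Phyhipl, Ccdc148 and Ier5l completed the 12, with mean log2 differences from control of -1.64, -1.46 and -1.33. Larger falls still were measured for XM_533124.2 (-3.08) and XM_540882.2 (-2.36), which have no gene name, but these rested on as few as 2 reads and 1 read in a library, and the control level of XM_533124.2 ran from 0.476 to 14.4 RPKM.

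**Figure D2:**
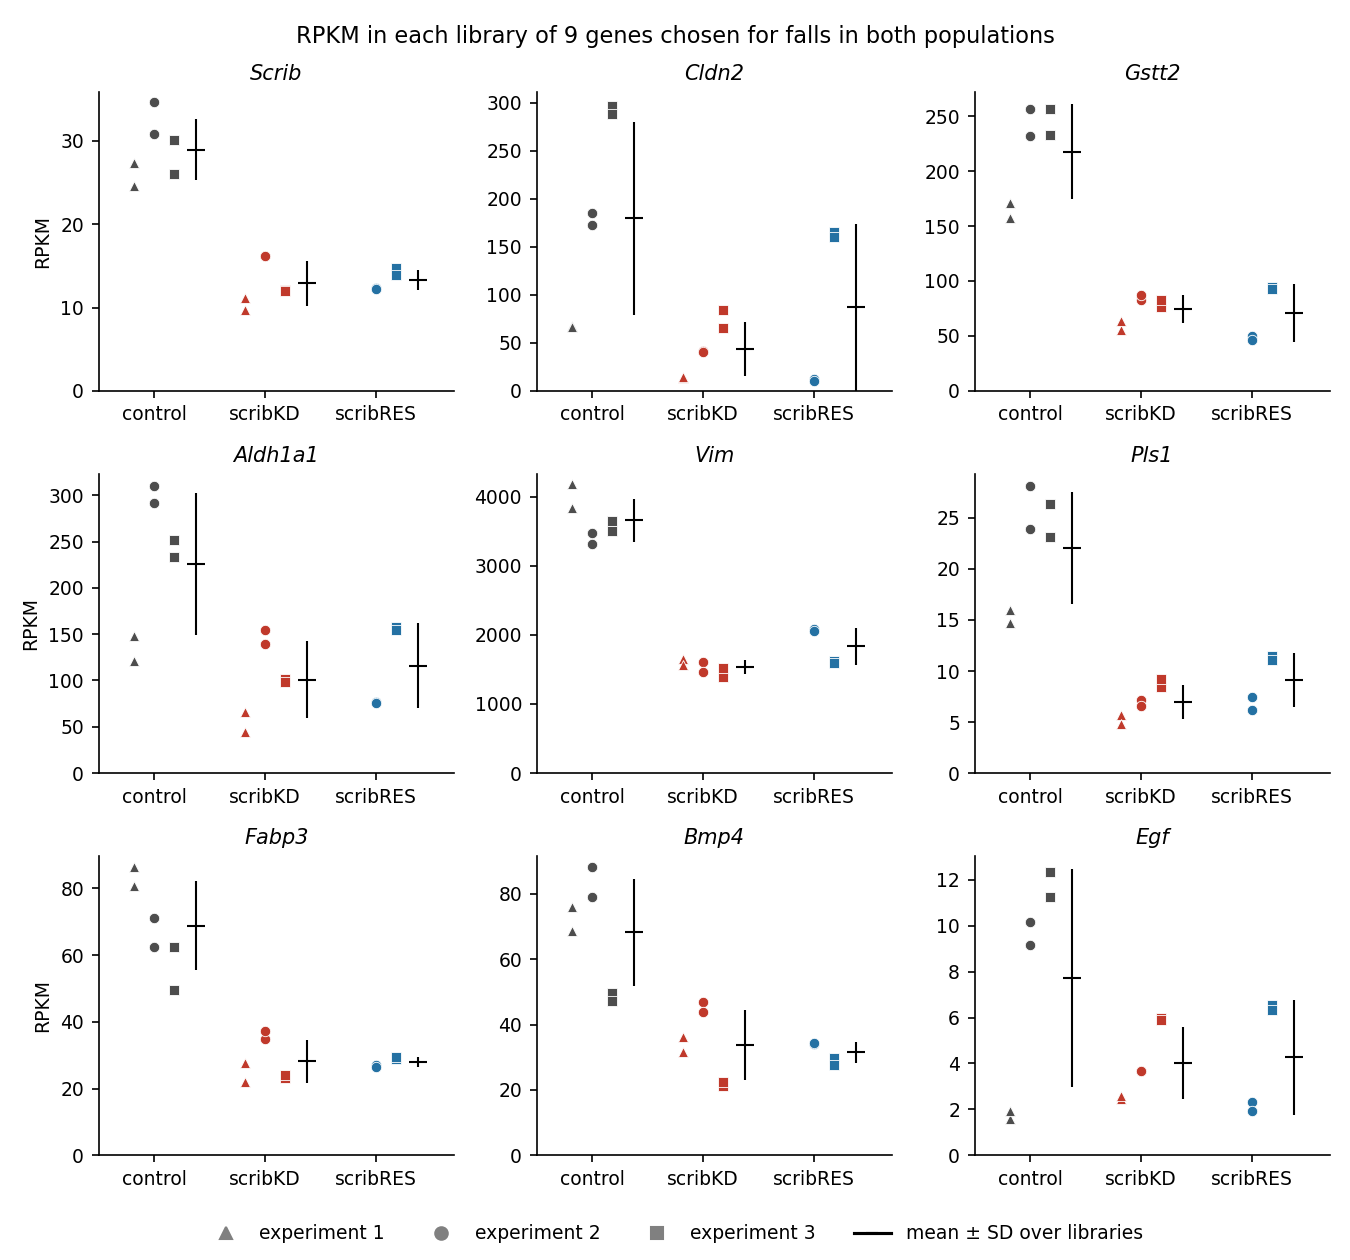
RPKM in every library for 9 named genes, by population on the horizontal axis and by experiment as triangles (1), circles (2) and squares (3), with the mean and SD over the libraries of a population as a bar (libraries of 1 experiment may be technical repeats). All 9 were below their own controls in experiments 2 and 3, while Egf in control cells of experiment 1 had 1.60 and 1.93 RPKM, under the 2.44 and 2.56 RPKM of scribKD cells there.

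Nt5c2 and Vim were the most abundant named genes of the set. Vim (XM_851385.2) encodes vimentin, the intermediate filament protein typical of mesenchymal cells and also made by many cultured epithelial lines. It had 3321 to 4184 RPKM over control libraries (median 3574), 1385 to 1655 in scribKD libraries (median 1544) and 2089, 2049, 1618 and 1593 RPKM in scribRES libraries. All silenced libraries were below all control libraries, and in experiment 2 scribRES cells held more than scribKD cells, by 0.44 on the log2 scale. Nt5c2, named for a cytosolic nucleotidase, had 3691 to 4558 RPKM in control, 1466 to 1815 in scribKD and 1659 to 2265 in scribRES libraries, and its ratio to Vim was nearly fixed: the SD of their log2 ratio over the 16 libraries was 0.0365, where the median over all 5050 pairs of the set was 0.511. EF432321.1, without a gene name, had an SD of 0.0580 against Vim. Further pairs with a nearly fixed ratio were Tmem147 with XM_003432588.1 (0.0381), Sstr1 with AY305400.1 (0.0509), Poldip2 with Sae1 (0.0830) and Poldip2 with Arpc4 (0.0948). In all, 7 pairs had an SD under 0.1. Whether the members of such pairs share reads was not tested, and they should not be read as separate falls. Without Vim, Nt5c2 and EF432321.1 the set took 0.692 to 0.965% of reads in control, 0.333 to 0.491% in scribKD and 0.413 to 0.506% in scribRES libraries.

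Ptma, prothymosin alpha, an acidic nuclear protein of growing cells, had 1409 to 1966 RPKM in control (median 1587), 704 to 1142 in scribKD (median 967) and 1018, 989, 1027 and 1024 RPKM in scribRES libraries. Aldh1a1, which oxidises retinaldehyde to retinoic acid, had 121 to 310 RPKM in control (median 243), 44.6 to 155 in scribKD (median 100.2) and 76.6, 75.4, 158 and 154 RPKM in scribRES libraries. Ptma kept its control libraries above the others, whereas the silenced libraries of Aldh1a1 in experiments 2 and 3 overlapped the controls of experiment 1. LOC100045999 and Gm15453, which carry the names of mouse gene models, had 492 to 814 and 193 to 268 RPKM over control libraries, 281 to 474 and 113 to 150 over scribKD libraries, and 337 to 405 and 120 to 133 over scribRES libraries.

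Within the set, scribRES levels did not keep one place relative to scribKD levels. In experiment 2, 69 of the 101 transcripts were lower in scribRES than in scribKD cells, with a median difference of -0.22. In experiment 3, 14 of the 101 were lower, with a median of 0.19. Over the 11332 transcripts that reached 5 RPKM these medians were -0.04 and 0.01. Of all 101, 61 were below scribKD in experiment 2 and above it in experiment 3, and 6 the reverse. The limit of 0.4 used in selection applied to the mean over experiments, so opposite shifts could cancel, and only 48 transcripts lay within 0.4 of scribKD cells in each experiment taken alone. The same limit removed large shifts in one direction, so the share of opposite signs is partly set by the selection. Such signs were not counted over all transcripts.

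Shifts of more than 0.4 in opposite directions occurred for 11 transcripts, 6 of them named. Cldn2 had the widest swing, from -1.85 in experiment 2 to 1.13 in experiment 3. Egfl7 (-0.98 and 0.52), Aldh1a1 (-0.95 and 0.64), Palm3 (-0.87 and 0.62), Sh2d5 (-0.65 and 0.59) and Wnt2 (-0.48 and 0.56) shifted the same way. For these genes equal levels in the 2 silenced populations were an average of experiments and were not seen in either one. Ap3s1 (-0.09 and -0.06), Bdh1 (-0.04 and -0.04), Rnf128 (0.03 and 0.05) and Spire2 (0.12 and 0.08) were close to scribKD cells in both. With 2 libraries of each population per experiment and selection on the same values, these differences are given without a test.

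**Figure D3:**
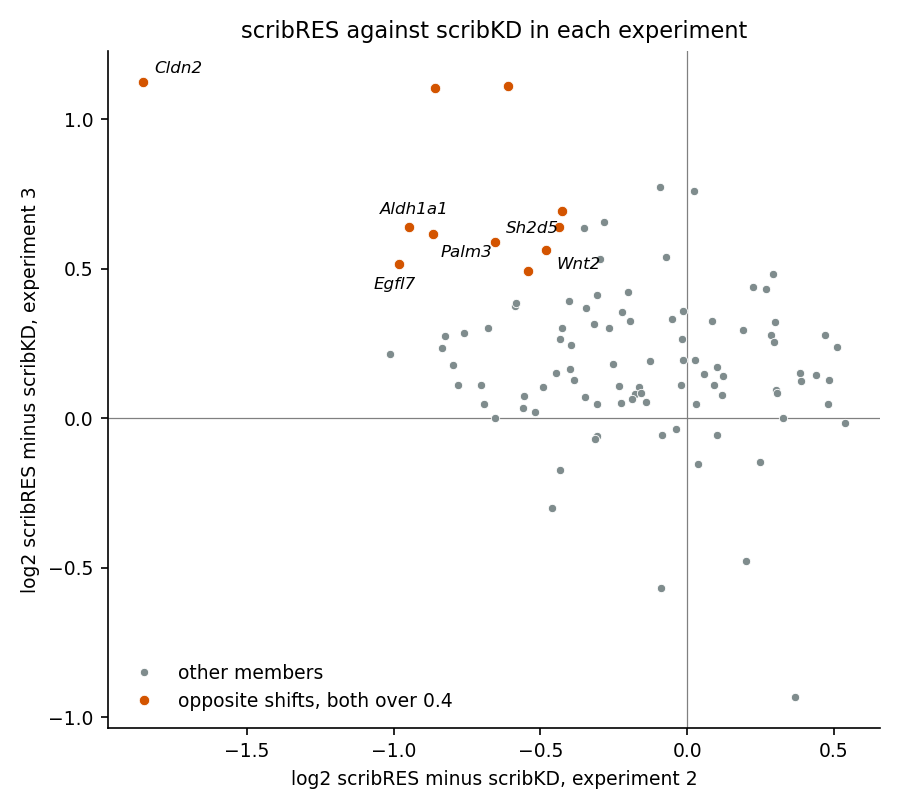
Log2 scribRES minus scribKD for each of the 101 transcripts, in experiment 2 on the horizontal axis and experiment 3 on the vertical axis, each the difference of 2 means of 2 libraries. The 11 transcripts with opposite shifts of over 0.4 are drawn in orange, and 61 points lie in the upper left part of the plot.

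To ask whether the falls held in libraries that the selection had not used, scribKD and control cells were compared in experiment 1, which had its own 2 control and 2 scribKD libraries. Differences were tested with limma over the 13156 transcripts with a mean of 1 RPKM or more in these 4 libraries, with calls made where the p adjusted by Benjamini-Hochberg was under 0.05 and the log2 difference exceeded 0.5 in size. Of the 101 transcripts 100 were tested, and 86 were called lower, 1 was called higher and 13 were not called. Over all transcripts tested 6.80% were called lower and 4.29% higher, and of those at the level used in selection 7.50% were called lower. The median difference was -1.04 (quartiles -1.31 and -0.86) in the set and -0.02 over all transcripts tested. Both scribKD libraries lay below both control libraries for 91 of the 100, compared with 34.3% of all tested, and 89 were at -0.6 or less, compared with 7.34%. The transcript left out was XM_533124.2, with 0.476 and 0.518 RPKM in control and 0.136 and 0.156 in scribKD cells. Without the filter on low values 77 of all 101 were called lower, compared with 3.45% of all transcripts then tested.

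Because gene names came largely from the study's lists of changed transcripts in these same samples, named transcripts were called more often. Of the 1781 named transcripts tested 21.3% were called lower and 13.8% higher, while 58 of the 65 named transcripts of the set were called lower. Counts over named genes are therefore not independent evidence of direction. Transcripts that fell in scribKD but did not reach -0.6 in both experiments in scribRES cells were called lower in experiment 1 in 136 of 211 tested, and transcripts chosen by the same limits for rises in both populations were called higher in 81 of 103. No test of the difference between these groups was made. The labels do not say whether the 2 libraries of an experiment came from separate cultures, and the study's description of this RNA-seq comparison counts biological replicates by experiment, not by library. Experiment 1 may thus hold 1 biological replicate per population, in which case these p-values measure technical spread only and are too small for a comparison of populations. The same direction in experiments 2 and 3 adds no test, as it was required by the selection.

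**Figure D4:**
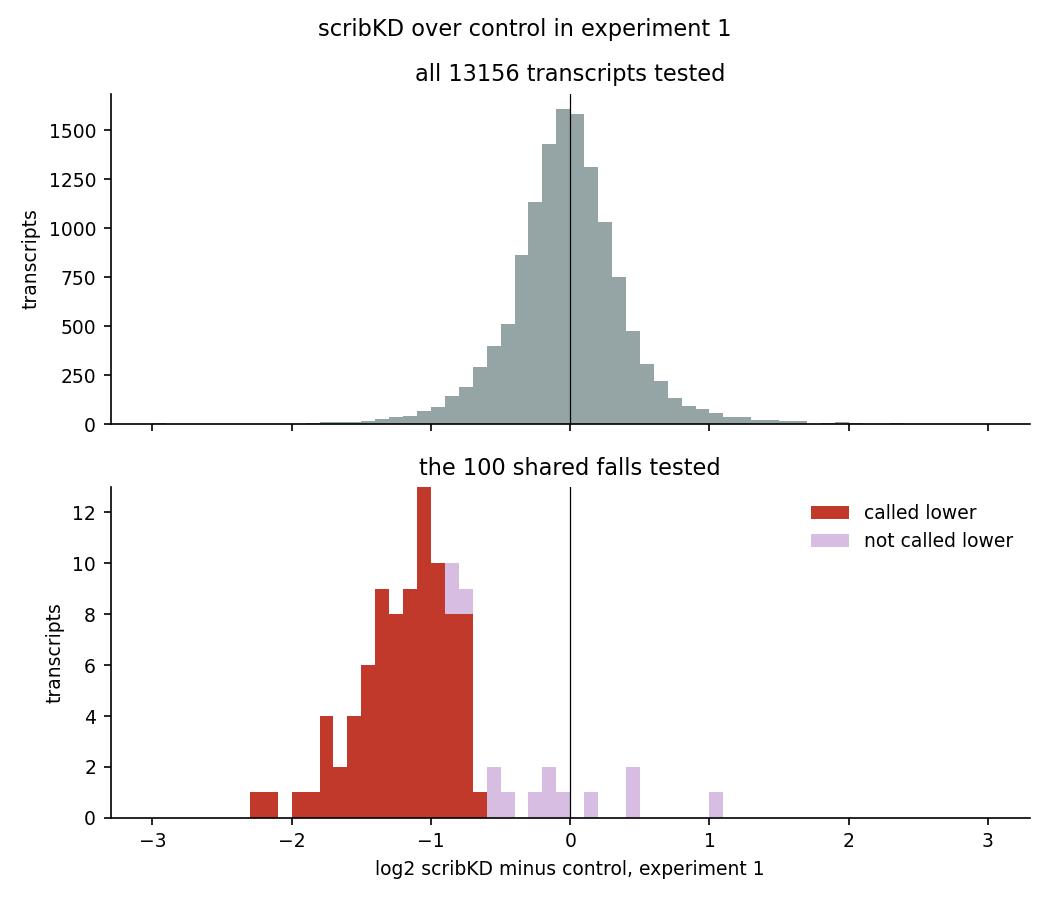
Number of transcripts by log2 scribKD minus control in experiment 1, in bins of 0.1, for all 13156 transcripts tested (top) and for the 100 tested transcripts of the set (bottom), with the 86 called lower in red. The 4 transcripts beyond 3 are drawn in the outermost bins, and the medians were -0.02 and -1.04.

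Single genes of the set showed falls in experiment 1 of about the size seen later. Scrib was lower by a log2 difference of -1.31 (standard error 0.12, limma adjusted p = 0.0098). Cldn2 had 67.6 and 66.6 RPKM in control and 13.8 and 14.8 in scribKD cells, a difference of -2.22 (standard error 0.09, adjusted p = 0.0093). Chrm4 fell from 37.2 and 37.5 RPKM to 9.63 and 11.04, by -1.85 (standard error 0.11, adjusted p = 0.0093). Each of the 12 largest named falls other than Egf was called lower here. Vim, with 3840 and 4184 RPKM in control and 1655 and 1564 in scribKD cells, differed by -1.32 (standard error 0.08, adjusted p = 0.0093), and the other 7 most abundant named genes were called lower as well.

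Of the transcripts tested, 14 were not called lower. In 13 of these 14 the control level was lower in experiment 1 than over experiments 2 and 3. The same held for 64 of the 86 called lower and for 46.4% of the 11332 transcripts that reached 5 RPKM. The log2 difference between these control levels had a median of -0.86 over the 14, -0.28 over the 86 and 0.02 over the 11332. The part of this difference in the outcome was not tested, and the selection had used the later controls. Egf differed by 0.49 (95% interval -0.03 to 1.00, adjusted p = 0.17) and Sytl2, an effector of Rab27 in vesicle transport, by 0.49 (95% interval -0.02 to 1.01, adjusted p = 0.16), with 7.76 and 11.2 RPKM in control and 14.6 and 11.9 in scribKD cells. Ets2, a transcription factor downstream of MAPK signalling, had 10.4 and 17.6 RPKM in control and 13.2 and 11.8 in scribKD cells, a difference of -0.12 (adjusted p = 0.77). Irx3 (-0.51, adjusted p = 0.072), Sh2d5 (-0.60, adjusted p = 0.12), Rnf128 (-0.43, adjusted p = 0.31) and Myrf (-0.90, adjusted p = 0.050) were below control without being called. The 1 transcript called higher was XM_853410.2, without a gene name and singled out after its values were seen, at 5.71 and 8.07 RPKM in control and 16.4 and 11.9 in scribKD cells (1.03, adjusted p = 0.042). It was not called in 6 of 17 alternative analyses, among them those without control replicate 1 (0.78, adjusted p = 0.057) and without scribKD replicate 1 (0.80, adjusted p = 0.090).

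Genes of the set were then placed in lists of pathways, each read against the other named genes of its list in experiment 1. The lists hold named transcripts only, and over all 1781 of these tested 21.3% were called lower and 13.8% higher. No list was tested against these shares, and several lay near them. Counts given below at an unadjusted p or from another fit have no such share beside them. In all, 21 of the 65 named genes belonged to a list. Fatty acid, sterol and membrane lipid metabolism held 4. Fabp3, a cytosolic carrier of fatty acids, had 86.3 and 80.7 RPKM in control and 22.1 and 27.8 in scribKD cells in experiment 1, a difference of -1.75 (standard error 0.13, limma adjusted p = 0.0093), and 27.0, 26.4, 28.7 and 29.5 RPKM in scribRES libraries. Cpt2, which hands long-chain fatty acids to the mitochondrial matrix, fell by 1.20, Bdh1, the mitochondrial enzyme that interconverts ketone bodies, fell by 1.43, and Elovl6, which lengthens saturated fatty acids, fell by 0.85, all called lower. Bdh1 was the steadiest, with 9.23 to 10.9 RPKM over all 6 scribKD libraries and 9.71 to 10.2 over the 4 of scribRES. Of 43 transcripts of the list tested 13 were called lower and 3 higher, with a median of -0.30.

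The list of actin, migration and invasion also held 4 genes of the set, which were Vim, Pls1, Spire2, a nucleator of actin filaments, and Arpc4, a subunit of the Arp2/3 complex that branches them. Arpc4 had 156 and 131 RPKM in control and 78.7 and 86.1 in scribKD cells in experiment 1, a difference of -0.80 (limma adjusted p = 0.018), and Spire2 differed by -0.71 (adjusted p = 0.023). The call of Spire2 was lost without control replicate 2 (-0.63, adjusted p = 0.055), without scribKD replicate 1 (-0.73, adjusted p = 0.055) and without scribKD replicate 2 (-0.69, adjusted p = 0.056). In the whole list 14 of 48 tested were called lower and 11 higher.

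Of signalling pathways, Wnt had 2 genes in the set. Wnt2 had 6.64 and 4.28 RPKM in control and 1.76 and 2.51 in scribKD cells in experiment 1 (-1.30, limma adjusted p = 0.041), and Rnf43, a ubiquitin ligase that removes Frizzled receptors from the surface, had 11.3 and 9.48 against 5.87 and 6.49 RPKM (-0.74, adjusted p = 0.030). Neither call held without control replicate 1 (-0.99, adjusted p = 0.091 for Wnt2, and -0.61, adjusted p = 0.088 for Rnf43) or without scribKD replicate 1 (-1.06, adjusted p = 0.081, and -0.67, adjusted p = 0.081). Wnt10a, Bcl9l and Tle1, outside the set, were also called lower and Wnt5b and Wnt7a higher, so 5 of 11 fell and 2 rose.

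Bmp4, a secreted BMP ligand, was the one gene of the set in the list of TGF-beta and BMP signalling. It had 76.1 and 68.8 RPKM in control and 31.7 and 36.1 in scribKD cells in experiment 1 (-1.09, limma adjusted p = 0.011), and 34.1, 34.4, 29.8 and 27.6 RPKM in scribRES libraries. In that list 2 of 16 were called lower and 6 higher, the latter including Tgfbr2, Inhba and Smad7. Egf and Ets2 were the genes of the set in EGF receptor and MAPK signalling, where 4 of 33 were called lower and 5 higher, among them Egfr itself.

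Junction and polarity genes were represented by Cldn2, Cdh24 and Scrib. In the list of epithelial junctions 6 of 22 were called lower, with Cldn2, Tjp3 and Cdh24 among them, and 1, Dsp, was called higher. Cdh24, a cadherin, differed by -1.15 (limma adjusted p = 0.011). In the polarity list Scrib was the only 1 of 7 transcripts called by limma, while at an unadjusted p under 0.05 there were 3 lower and 1 higher, and 1 each with limma-voom on reads recovered from the RPKM values. Of kidney tubule genes, where Irx3 and Egf belonged to the set, 7 of 29 were called lower and none higher by limma, compared with 16 and 3 at an unadjusted p under 0.05 and 9 and 1 with limma-voom. Those 7 included Pax8, which was not in the set.

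The cell cycle list had the most calls of the 16 lists, and 2 of its genes were in the set. In experiment 1, 43 of its 58 transcripts were called lower and 2, Cdkn1a and Wee1, higher, with a median of -0.93. The genes of the set were Nde1, a dynein regulator of the spindle pole, and E2f7, a repressor among E2F factors. Both were called lower, at -1.21 and -1.49 (limma adjusted p = 0.012 and 0.0098). E2f7 had 7.18 and 7.28 RPKM in control and 2.53 and 2.49 in scribKD cells there, and 5.75, 6.17, 3.003 and 3.40 RPKM in scribRES libraries. Its scribRES libraries of experiment 2 lay above the lowest control library of experiment 3.

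St6gal1, a Golgi sialyltransferase, was the one gene of the set in the list of the secretory pathway and glycosylation. It had 22.4 and 24.0 RPKM in control and 11.2 and 11.4 in scribKD cells in experiment 1 (-1.03, limma adjusted p = 0.010), and 10.2, 9.18, 8.52 and 9.27 RPKM in scribRES libraries. In the list 34 of 59 were called higher and 4 lower. Pdk2, a kinase that switches off pyruvate dehydrogenase, was the one gene in glycolysis and hypoxia (-0.74, adjusted p = 0.013), where 4 of 25 were called lower and 5 higher.

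The remaining lists held no gene of the set, and their limma calls are likewise to be read beside the 21.3% and 13.8% of all named transcripts. Those shares do not apply to the counts at an unadjusted p or from limma-voom. In experiment 1, 7 of 28 cilium transcripts were called lower and none higher by limma, compared with 15 and 2 at an unadjusted p under 0.05 and 11 and 1 with limma-voom. For inflammation, interferon and antigen presentation 7 of 35 were lower and 7 higher, for amino acid synthesis and the integrated stress response 2 of 17 were lower and 1 higher, and for Hippo, YAP and TAZ 2 of 10 were lower and 4 higher. None of 4 Notch transcripts was called by limma or by limma-voom, and none had an unadjusted p under 0.05.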

How the data were processed

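All 17 sequencing runs, from 16 libraries, were assigned to a population, experiment and replicate by their titles. Per the study's methods and the submitters' processing notes, which name cutadapt 1.0 and TopHat2 2.0.6, the authors trimmed single reads by quality, mapped them to the dog genome CanFam3.1 with transcripts placed by BLAT as junctions, counted reads overlapping each transcript and deposited RPKM values. The handling of reads that match more than 1 transcript is not given in the sources used here. The authors called changed genes with edgeR on counts. The deposited values are RPKM, so limma was planned in its place, and edgeR was not run on the reads recovered later. RPKM is relative to the library total, so a few abundant transcripts can shift the rest. Median-ratio scaling was therefore run as an alternative.

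Because RPKM rises in steps of 1 read, reads were recovered for 18873 transcripts, 2698 being 0 in every library, with 100% of values above 0 whole within 0.01 read. They served for depth and for the limma-voom alternative. Transcripts of the set had from 1 to 425432 reads in a library, with a median over transcripts of 157 reads in the library with fewest, and counts cover counting error only.

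The set was found by the limits given in the text. Its members and all gene lists were chosen with earlier results of these data known. Names came from the study's tables, which carry those of mouse orthologues, or a RefSeq gene table of another dog assembly, by transcript accession, for 1989 of 21571 transcripts (9.22%). Coordinates and sequences were not analysed here.

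scribKD and control cells of experiment 1 were compared with limma 3.58.1 (lmFit, eBayes with trend) in R 4.3.3 on log2(RPKM + 0.1), two-sided, without a block, with Benjamini-Hochberg adjustment over all transcripts tested. The pseudocount of 0.1 understates differences of low transcripts. An exact permutation test of 2 libraries against 2 cannot go below p = 0.333. The fit took the 2 libraries of a population as replicates, which may be technical. It was tested on simulated data. Python 3.11.15 with numpy 2.4.6, pandas 2.3.3 and matplotlib 3.10.9 did the rest. Named one by one were Scrib, the 12 largest named falls, the 8 most abundant named genes, every member of a gene list, the genes nearest the limits, and named genes above 0 in experiment 1. Other genes, such as Palm3, Sh2d5, Rnf128 and Myrf, were named after their values were seen. Alternatives were other pseudocounts, filters, limits and scaling, no trend, a replicate block, all 16 libraries in 1 fit, single runs of control replicate 2, no fold change limit and leaving out each library. The crossed block and limma-voom were added after seeing the data.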

Additional observations from a re-analysis of the deposited data

Results flagged for a closer look

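One value among the genes described one by one stood apart from its group. In scribRES replicate 3, Rnf43 had 5.95 RPKM, while the other scribRES libraries lay between 7.12 and 7.33 RPKM, so that 0.851 of the range of the 4 libraries was the gap to the nearest. The control, scribKD and scribRES libraries of 35 genes were examined in this way, 105 groups in all. The cutoff is meant to mark about 1 group in 20 by chance when libraries are independent. These groups pool experiments whose levels differ, so that rate need not hold here.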

How the results depend on the processing

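The number of transcripts in the set followed its limits. It was 155 with a limit of -0.5 and 42 with one of -0.8, and between 84 and 134 with other pseudocounts, level limits or scaling. Leaving out any 1 library of experiments 2 and 3 gave 94 to 111 transcripts, of which 88 to 97 were among the 101.

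Of the transcripts in the set, 76 to 90 were called lower in experiment 1 under every alternative run, 78 to 82 when 1 library was left out, where the lone library was assumed to vary as the other group. A stricter filter on RPKM left 86 to test, with 76 called lower, compared with 7.96% of all transcripts then tested. It stood in for the study's own filter, which used read counts scaled to library size and was not run here. The 2 filters differ, as the one on RPKM kept XM_853410.2, which had at most 57 reads in a library. Counts over all transcripts moved more, with 3.45% to 9.90% of those tested called lower over the alternatives. The replicate block gave 456 lower and 301 higher in place of 894 and 565, with 77 of the set called lower. It made the calls of Wnt2 (adjusted p = 0.053), Rnf43 (0.063) and Spire2 (0.062) miss the threshold. The replicate numbers are not stated to mark a shared culture, and deviations of same-numbered libraries correlated at -0.40. A crossed replicate block gave 1303 lower and 1014 higher, with 90 of the set lower. With all 16 libraries sharing 1 spread 877 were called higher. Leaving out a library gave 519 to 990 lower and 343 to 821 higher, the fewest without scribKD replicate 1 (519 and 343). Among 35 named genes, 574 of 593 values under alternatives kept direction and side of the threshold. Ets2 ranged from -0.50 without control replicate 1 to 0.26 without control replicate 2. With 2 libraries a group, the fit had 2 residual degrees of freedom before moderation.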

Other observations

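Further named genes of the set, picked after their values were seen and so given as values only, act in the nucleus, in mitochondria and at the cell surface. Hmgb2, a chromatin protein that bends DNA, had 132 to 147 RPKM over the 6 control libraries, 48.0 to 60.3 over the 6 scribKD libraries and 62.6 to 71.7 over the 4 scribRES libraries. Hnrnpa3, an RNA-binding protein of the nucleus, had 139 to 226 RPKM in control, 68.4 to 89.5 in scribKD and 87.3 to 109 in scribRES libraries. Mcu, the pore of the mitochondrial calcium uniporter, had 67.5 to 75.7 RPKM in control, 29.3 to 38.7 in scribKD and 36.7 to 41.8 in scribRES libraries. Sae1, a subunit of the enzyme that activates SUMO, had 101 to 123 RPKM in control, 59.2 to 75.7 in scribKD and 65.2 to 79.4 in scribRES libraries. These 4 genes had narrower ranges over the experiments than Cldn2, and all of their silenced libraries lay below all control libraries.

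Sstr1, a somatostatin receptor, had 17.8 to 26.9 RPKM in control, 7.27 to 12.3 in scribKD and 10.99 to 13.9 in scribRES libraries. Gla, the lysosomal alpha-galactosidase, had 7.99 to 12.6 RPKM in control, 4.19 to 8.27 in scribKD and 3.65 to 6.17 in scribRES libraries, so its highest scribKD library passed the lowest control library, which belongs to another experiment.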
